A study of Rattus norvegicus with 11 samples.

Results

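The genes described here encode the proteins of the cytosolic ribosome in retroperitoneal white adipose tissue of rats. They were chosen by name alone: a gene row entered when its symbol began with Rpl or Rps and a digit, or was Rplp0, Rplp1 or Rplp2, and names of S6 kinases, of Rps19bp1, and names holding -ps or a dot were left out. The rule found 102 of the 25274 rows of the count table, carrying 87 symbols, of which 65 rows belong to the large and 37 to the small ribosomal subunit. RNA came from 11 female wild-type Wistar rats, 1 library per rat. All were put on a western diet at 10 weeks of age, were ovariectomized after 6 weeks of it and then received degarelix, a blocker of the receptor for gonadotropin-releasing hormone that lowers the pituitary's release of gonadotropins. Osmotic pumps then delivered vehicle to 6 rats (the degarelix only group) while the pumps of the other 5 rats (the FSH group) released follicle-stimulating hormone (FSH), 6 µg per kg each day. Food was limited for 12 days to hold body weight at its value before surgery, was free for 7 days, and was withheld for 4 hours before harvest at 19 weeks of age. No rat kept its ovaries and none lacked degarelix, so the comparison is of added FSH in ovariectomized, degarelix-treated animals only.

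A ribosome reads messenger RNA with its small subunit and joins amino acids in its large subunit, and each subunit is built from ribosomal RNA and many small proteins that cells make in matched amounts. The messengers of these proteins belong to the 5′TOP class: they begin with a cytosine followed by a run of pyrimidines (C or T in the gene), and the growth kinase mTOR and the RNA-binding protein Larp1 set how well such messengers are translated and kept. In fat tissue, as elsewhere, ribosomal protein messengers are abundant in nearly all cell types, so a bulk sample adds up adipocytes, vessel cells, immune cells and others.

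The stretch around the start of transcription, where the pyrimidine run lies, is shown for 9 genes whose values are described below, to let the 5′TOP start be seen beside genes that lack it at the listed start. The sequences are RefSeq's, on build GRCr8, and cover 15 bases before the start and 15 from the start onward, 5′ to 3′ on the gene's strand. Capitals mark the longest run of pyrimidines, and the 16th base is the listed start.
Rps28 (chr7:15311319-15311348, minus): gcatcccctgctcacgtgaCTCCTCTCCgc
Rpl26 (chr10:54109677-54109706, plus): ctcgtgtcaaCTTacagaaccggaagtcgc
Rps7 (chr6:50999431-50999460, minus): tcgcgagagctgtgTCTCTTTCTaagccgg
Rps3a (chr2:173827028-173827057, minus): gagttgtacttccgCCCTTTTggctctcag
Rps4x (chrX:71342907-71342936, minus): tccagcgcgcgcagCCTCCgaccctaattt
Rpl5 (chr14:1995211-1995240, minus): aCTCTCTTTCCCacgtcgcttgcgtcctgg
Rpl4 (chr8:73566462-73566491, plus): taagTTCTTCCTTTTCCTgtgggagcagcc
Rplp0 (chr12:46718376-46718405, minus): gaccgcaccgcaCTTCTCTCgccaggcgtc
Rps2 (chr10:14251833-14251862, plus): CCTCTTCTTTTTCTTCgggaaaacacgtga
In Rps7, Rps3a and Rplp0 the listed start is a C followed by at least 4 pyrimidines. In Rps28, Rpl5, Rpl4 and Rps2 a long run lies near the listed start but does not open there with 5 pyrimidines, and in Rpl26 the longest run in the window is 3 bases.

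The 5′TOP start was common among the ribosomal protein genes and rare elsewhere. Of the 62 genes with a standard ribosomal protein name and a plausible count (defined below), 48 matched 1 RefSeq promoter, 1 matched 2 and 13 had no entry. A C at the listed start followed by 4 pyrimidines was found in 19 of the 48 (39.6%), against 2.60% of 24206 promoters of all genes. A run of at least 8 pyrimidines in the 30-base window was found in 34 of the 48 (70.8%), against 11.3% of all. Short motifs were searched on both strands in 300 bases, from 250 before the start to 50 after it. The ETS-type motif CCGGAAG was in 33.3% of the 48 against 9.49% of all promoters, GGGCGG, the core of an Sp1 site, in 54.2% against 35.9%, and AAGATGG, a YY1-type motif, in 16.7% against 7.38%. The TATA motif TATAAA was in 10.4% against 14.3%. Genes with the C at the listed start and genes without it had the same median log2 change with FSH, 0.19 in each (n = 19 and n = 29). The split rests on the listed base alone, and Rpl4 and Rps2, with long runs near it, fell among the 29. It therefore cannot tell whether a 5′TOP start bears on the change.

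Levels are in CPM, counts per 1e+06 of each library's total after scaling between libraries by the trimmed mean of M values (TMM). CPM is not divided by transcript length, so it is compared between rats, not between genes. Library totals were 16452117 to 23694602 counts in the degarelix only group and 13163021 to 19837706 in the FSH group, and the ranges overlapped. Markers of adipocytes summed to 35766 to 44807 CPM in the degarelix only libraries and 37320 to 47470 CPM in the FSH libraries, with no adipocyte marker at 0. The rats are separate animals, so the p-values measure the spread between animals of 1 tissue piece each.

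The summed CPM of the 102 rows was higher in every FSH library than in every degarelix only library. In degarelix only replicates 1 to 6 it was 20970.5, 21378, 20061, 21184, 20741 and 19639, and in FSH replicates 1 to 5 it was 23061, 23192, 23691, 22256 and 24034. The groups did not overlap, with means of 20662 ± 677 (SD, n = 6) and 23247 ± 678 (SD, n = 5), a log2 ratio of 0.17. FSH replicate 4 lay closest to the degarelix only rats. As a share of all counts before any scaling between libraries, the rows took 1.89% to 2.16% in the degarelix only group and 2.15% to 2.50% in the FSH group, so there the lowest FSH library, again replicate 4, fell just below the highest degarelix only library. In bulk tissue a larger share of cells rich in these messengers and more of the messengers per cell cannot be told apart.

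The sums of both subunits were higher with FSH. Large subunit rows summed to 12953, 13193, 12283, 12923, 12814 and 12143 CPM in the degarelix only libraries and to 13960.3, 14036, 14494, 13729.5 and 14767 CPM in the FSH libraries. Small subunit rows summed to 8017, 8185, 7778, 8262, 7927 and 7497 CPM against 9100.3, 9156, 9197, 8526 and 9266 CPM. In each subunit all FSH libraries lay above all degarelix only libraries. The small subunit's share of the sum was 38.4% ± 0.349 (SD, n = 6) with degarelix only and 38.9% ± 0.529 (SD, n = 5) with FSH, a difference of 0.479 percentage points with overlapping ranges (38.2% to 39.0% and 38.3% to 39.5%). The share was not tested, since it is a score over genes chosen together.

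**Figure D1:**
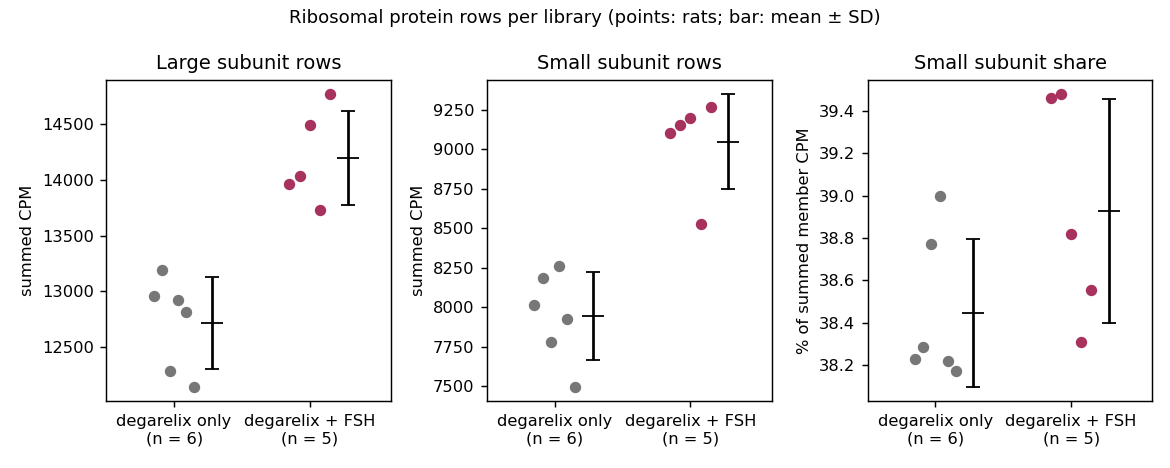
Each point is 1 rat, and the bar beside the points is the mean ± SD; the left and middle panels plot the summed CPM of large and of small subunit rows and the right panel the small subunit's percentage of the sum, with vertical axes that do not start at 0. The FSH rats lie above the degarelix only rats for both subunits (12143 to 13193 against 13730 to 14767 CPM, and 7497 to 8262 against 8526 to 9266 CPM), while the shares overlap.

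Most ribosomal protein rows were slightly higher with FSH, and few passed the test singly. The test was edgeR's quasi-likelihood test over all 12846 rows with enough counts, with Benjamini-Hochberg adjustment over all of them and a threshold of 0.05. Of the 102 rows, 82 were tested and 20 were not, none of the latter above 0.841 CPM in any library. Of the 82, 4 passed as higher with FSH, where 1.21% of all genes tested did, and 0 passed as lower, where 1.07% did (2.27% of all genes passed in either direction). At an unadjusted p under 0.05, 51 rows were higher (11.8% of all genes) and 1 lower (10.8% of all genes). At an adjusted p under 0.10 the count was 31 higher (3.98% of all genes) and 1 lower, with the share of all genes lower not counted there. In 33 of the 82 rows every FSH library lay above every degarelix only library (2.54% of all genes), and in 0 rows below (1.80% of all genes). The fitted change was positive in 74 of the 82, against 51.6% of all genes, and the median log2 change was 0.19, against 0.01 for all genes tested. Over all 102 rows, including those not tested, the mean CPM was higher with FSH in 88 and lower in 12, and 2 rows held no count. The rows share the same 11 rats and libraries, so these counts are not independent of one another.

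The count of 4 depended on single rats. Leaving out any of 9 of the 11 libraries left 0 rows past the threshold as higher, where 0.169% to 0.724% of all genes passed as higher. Leaving out degarelix only replicate 4 gave 11 rows higher (2.08% of all genes), and leaving out FSH replicate 4 gave 9 (2.10% of all genes). DESeq2's test on the same counts called 42 rows higher and 1 lower, but it also called more of all genes higher (4.44%, against 1.21%). In either direction it called 1135 of the 12846 genes, against 292. With limma-voom 8 rows were higher and 0 lower, and 1.40% of all genes were higher. The median log2 change moved less: it was 0.17 to 0.20 whichever library was left out.

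Single rows varied little between rats. Among the 62 rows with a standard name and a plausible count, the median coefficient of variation was 5.14% in the degarelix only group and 4.72% in the FSH group, against 12.6% and 12.7% over all genes tested. The median standard error of their log2 changes was 0.06, against 0.11 over all genes. The genes tested reach down to far lower counts than these rows, and genes of like level were not compared. Log2 changes of the 62 rows ran from -0.03 to 0.29 with a median of 0.19, and 53 of the 62 lay between 0.12 and 0.25. Large subunit rows (36) had a median log2 change of 0.18, with 34 positive, and small subunit rows (26) one of 0.21, with all 26 positive.

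Library by library, the 62 rows shifted as a block. The median deviation from each row's own mean, on the log2 scale, was -0.07, -0.03, -0.12, -0.02, -0.08 and -0.17 in the degarelix only libraries and 0.09, 0.11, 0.11, 0.04 and 0.15 in the FSH libraries. Of the 62 rows, 11, 8, 3, 15, 10 and 2 lay above their own mean in the degarelix only libraries, and 59, 53, 58, 44 and 60 did in the FSH libraries. FSH replicate 4 had the smallest upward shift and degarelix only replicate 6 the largest downward one. FSH replicate 3, the library with the fewest counts of all 11, had a shift equal to that of FSH replicate 2 at this rounding.

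**Figure D2:**
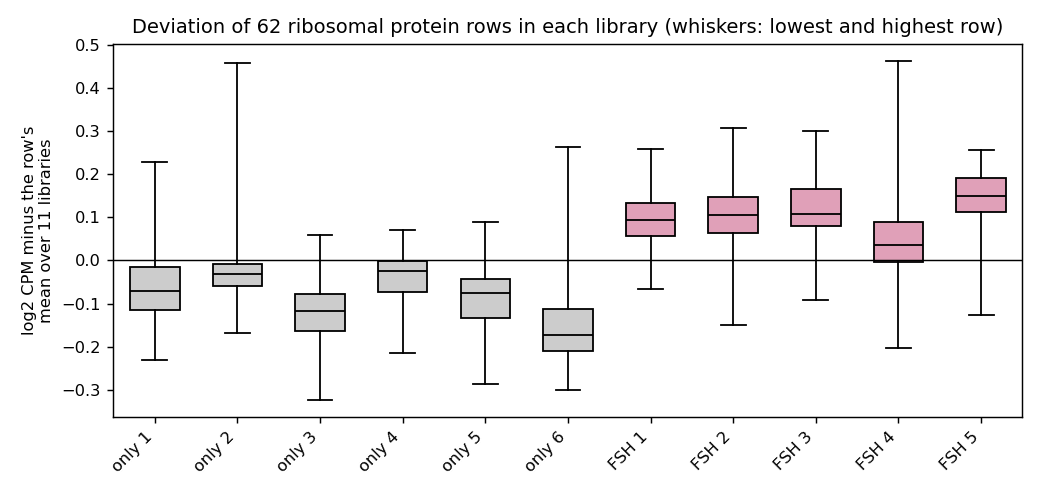
Boxes show, for each library, the quartiles of log2 CPM minus the row's mean over 11 libraries across 62 ribosomal protein rows, the line in the box is the median, and whiskers reach the lowest and highest row. Medians are below 0 in all 6 degarelix only libraries (-0.17 to -0.02) and above 0 in all 5 FSH libraries (0.04 to 0.15).

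Rpl7, a protein of the large subunit, had the smallest p. It held 441, 475, 424, 460.4, 436 and 416 CPM in the degarelix only rats and 561, 505, 543, 524 and 567 CPM in the FSH rats. All FSH rats were above all others, and Rpl7 rose by 0.29 ± 0.06 (log2, SE) at an adjusted p of 0.0382.

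Rpl26, which lies near the mouth of the tunnel through which the new protein leaves, held 375, 382, 346, 386, 385 and 355 CPM in the degarelix only rats against 439, 433, 429, 436 and 454 CPM in the FSH rats. It rose without overlap, by 0.24 ± 0.06 on the log2 scale (adjusted p = 0.0463). Rps28, a small protein of the small subunit's head, held 117, 122, 125, 129, 106 and 110.2 CPM against 148, 151, 145, 128 and 149.7 CPM. It rose by 0.29 ± 0.07 (adjusted p = 0.0475), although FSH replicate 4, at 128 CPM, lay inside the degarelix only range. Across the rats left out in turn, the adjusted p reached 0.0983 for Rpl7, 0.113 for Rpl26 and 0.114 for Rps28. The calls of all 4 stood only without degarelix only replicate 4 or without FSH replicate 4, and each call was lost without any other single rat. All 4 calls were also lost with no filter on low counts. Rpl26 and Rps28 missed the threshold with DESeq2's size factors in the same test, and Rps28 did with library totals alone.

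Just outside the threshold stood proteins of both subunits with changes of like size. Of the large subunit these were Rpl24 (0.24, adjusted p = 0.0549) and Rpl10 (0.23, adjusted p = 0.0589), which were without overlap and were singled out after their values were seen. Rps7, a protein of the small subunit's body, held 271 to 315 CPM against 333 to 359.8 CPM, at an adjusted p of 0.0526. Rps4x, which also lies in the body, held 526, 542, 498, 549, 522 and 516 CPM against 611, 618, 629.8, 607 and 606 CPM, at 0.0529. All FSH rats lay above all degarelix only rats for both genes, with log2 changes of 0.24 and 0.23. Rps3a, at the platform of the small subunit, held 470.0 to 522 CPM against 549.9 to 621 CPM (0.23, adjusted p = 0.0632). Rps3, which lines the entry of the messenger channel, held 399.8 to 453 CPM against 494 to 514 CPM (0.21, adjusted p = 0.0654). These too were without overlap.

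**Figure D3:**
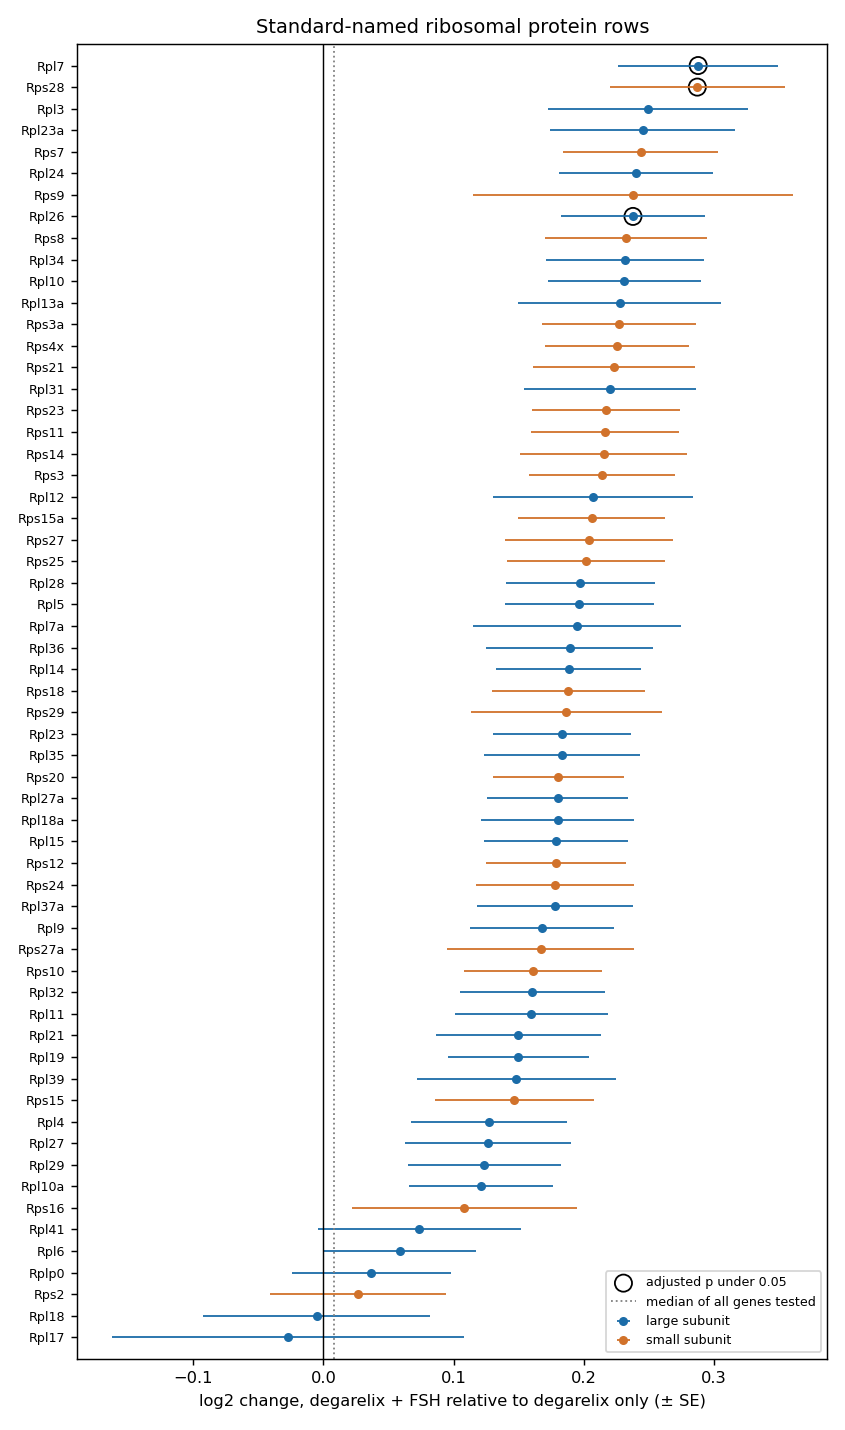
Points are log2 changes (FSH relative to degarelix only) of 60 standard-named rows with a plausible count, 2 others of the 62 are not drawn, bars are ± SE, blue is the large and orange the small subunit, circles mark an adjusted p under 0.05, and the dotted line is the median of all genes tested (0.01). Changes run from -0.03 for Rpl17 to 0.29 for Rpl7 and Rps28, and 58 of the 60 points lie above 0.

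Members were also grouped by place in the ribosome. Of the 14 listed proteins of the small subunit's head, 13 had a row, on 16 rows. All 15 rows tested were positive (median log2 change 0.19), where 51.6% of all genes were. Of these rows, 2 passed the threshold as higher, Rps28 among them (1.21% of all genes did). At an unadjusted p under 0.05, 13 were higher (11.8% of all genes). The 15 include low Rps29 rows of 5.01 and 1.74 CPM beside the main one, and the row of 1.74 CPM is among the 13. Proteins around the exit tunnel (8 listed, 8 rows tested) were positive in 7 of 8 with a median of 0.17. Rpl26 was the 1 that passed as higher (1.21% of all genes did). Rpl4, which reaches into the tunnel, held 704, 694, 657, 671, 675 and 675 CPM against 681, 739, 759.5, 749.6 and 779 CPM, with a log2 change of 0.13 and an adjusted p of 0.233. Rpl17, at the tunnel's mouth, held 319, 418, 247, 262, 321 and 299 CPM against 330.0, 275, 372, 269 and 279 CPM. Its rats were widely spread in both groups, with a change of -0.03 ± 0.14 and an adjusted p of 0.923.

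Rpl5 and Rpl11 form, with the 5S ribosomal RNA, the particle that also binds the p53 regulator Mdm2 when ribosome assembly is disturbed. Rpl5 held 451, 481, 432, 477, 463 and 450.0 CPM with degarelix only and 510.3, 509, 554, 539.7 and 517 CPM with FSH. Rpl11 held 367, 365, 344, 384, 371 and 371 CPM against 414, 395, 396, 395 and 450.1 CPM. Neither overlapped between groups, and neither passed the threshold, with log2 changes of 0.20 (adjusted p = 0.0863) and 0.16 (adjusted p = 0.144).

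The stalk of the large subunit recruits the elongation factors. Rplp0, its core protein and a common reference gene in expression assays, held 853, 852, 828, 825, 867 and 855 CPM against 825, 831, 933, 855 and 898 CPM. The groups overlapped, with means of 847 ± 16.5 and 868 ± 46.1 (SD) and a log2 change of 0.04 ± 0.06 (adjusted p = 0.76). Rpl12, at the base of the stalk, held 213 to 257 CPM against 239.9 to 308 CPM (0.21 ± 0.08, adjusted p = 0.145). Rplp2 had only 0.285 and 0.391 CPM on its named row and was not tested, and Rplp1 had no row of its own name.

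A few rows changed less than the rest. Of the 62 rows, 7 had a log2 change below 0.12: Rpl17, Rpl18 (-0.01), Rps2 (0.03), Rplp0, Rpl6 (0.06), Rpl41 (0.07) and Rps16 (0.11). Rpl18, Rpl6 and Rps16 were singled out after their values were seen. Rps2, a small subunit protein at the messenger channel, held 557, 549.7, 509, 516, 586 and 568 CPM against 582, 543, 563, 505 and 596 CPM (adjusted p = 0.849). Rpl41, the shortest ribosomal protein, held 607 to 699 CPM against 593 to 787 CPM (adjusted p = 0.604). Ribosomal proteins with names outside the rule overlapped between groups too, and of the 62 rows 33 did not overlap. Rpsa, which sits on the small subunit, held 770.3 to 870.4 CPM against 751 to 861 CPM (0.00, adjusted p = 0.995). The row that the deposited table describes as S30-like, LOC100360647, held 326 to 387 CPM against 378 to 417 CPM (0.16, adjusted p = 0.159). Its change was above 0.12, as in most of the 62 rows. Fau, the gene of S30, held 0 or 1 count in each library. A difference between the rows below 0.12 and the rest was not tested.

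The paralogs, copies of ribosomal protein genes that are used in fewer tissues or outside the ribosome, lay on both sides of 0. Of 9 listed, 8 had a row and 7 were tested, 2 positive and 5 negative, with a median log2 change of -0.01 and 0 past the threshold. Rpl7l1, a relative of Rpl7 that acts in assembly of the large subunit, held 34.0, 32.7, 29.5, 32.7, 32.4 and 34.2 CPM with degarelix only against 22.6, 25.2, 28.7, 31.4 and 24.2 CPM with FSH. It had the smallest p among the rows with a negative change, -0.30 ± 0.08 (adjusted p = 0.075), opposite in sign to Rpl7. FSH replicate 4 overlapped the degarelix only range. Rps27l, a p53 target, held 46.1 to 52.4 CPM against 44.6 to 52.2 CPM (adjusted p = 0.979). Rpl36al held 68.9 to 79.4 CPM against 68.9 to 84.0 CPM (0.07, adjusted p = 0.546), Rpl22l1 28.8 to 38.8 CPM against 30.6 to 43.0 CPM (0.12, adjusted p = 0.501), and Rps4y2 17.0 to 22.1 CPM against 14.5 to 29.7 CPM (-0.01, adjusted p = 0.981). The muscle form Rpl3l, at 1.10 CPM and 0.669 CPM (adjusted p = 0.349), and the testis form Rpl10l, at 1.21 CPM and 1.00 CPM (adjusted p = 0.745), were low. Another testis form, Rpl39l, at 0.225 CPM and 0.193 CPM, was near the limit of detection and was not tested. A count of 0 allows up to 0.127 to 0.228 CPM in these libraries (3 counts, on library totals before TMM scaling), which covers counting error only.

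Several standard names carried far fewer counts than the rest. The median over the 82 standard-named rows was 295.8 CPM, and a row was called implausibly low below 0.1 of it, 29.6 CPM. This left a wide gap: the highest low row was Rps13 at 9.13 CPM and the lowest row above the limit was Rps9 at 34.3 CPM. There were 20 low rows, of which 9 were tested and 0 passed the threshold. Of these, 12 were further rows of a symbol that also had a row with plausible counts. Rpl21 and Rps29 had 3 such rows each, of at most 2.09 and 5.01 CPM beside main rows (ENSRNOG00000000957 and ENSRNOG00000004196) of 408 and 231 CPM. Rpl32, Rpl36, Rpl37a, Rpl39, Rpl7a and Rps2 had 1 each, from 0.011 CPM for Rps2 to 5.71 CPM for Rpl32. The other 8 were the only row of their symbol: Rpl30 (8.55 CPM), Rps13, Rps6 (0.635 CPM), Rpl38 (0.547 CPM), Rpl35a (0.355 CPM), Rpl8 (0.345 CPM), Rpl37 (0.336 CPM) and Rplp2 (0.333 CPM). Rps6 is the substrate by which S6 kinase activity is usually followed, and its row held 0.412 to 0.867 CPM over all 11 libraries. Another 6 of the 76 standard symbols had no row: Rpl13, Rpl22, Rpl36a, Rplp1, Rps19 and Rps26.

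**Figure D4:**
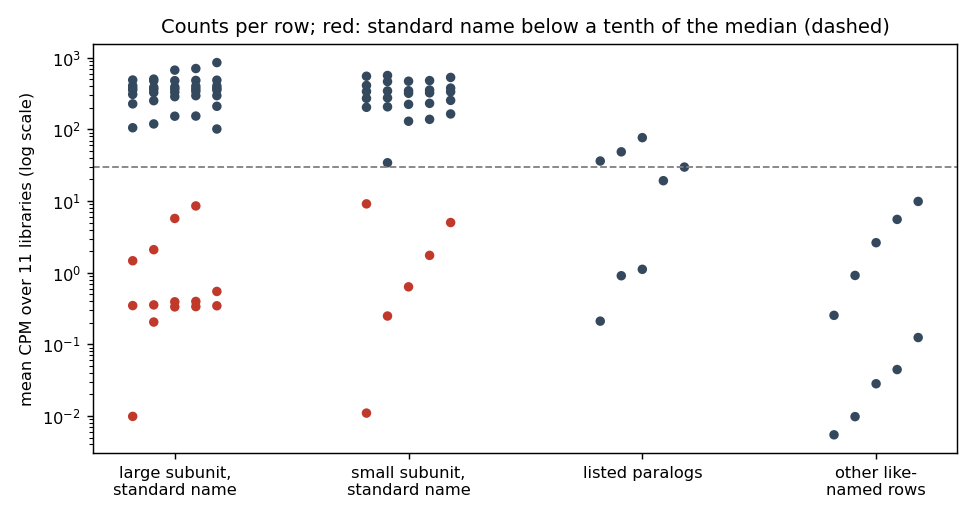
Each point is a gene row, placed by its mean CPM over 11 libraries on a log scale, for standard-named rows of each subunit, listed paralogs and other like-named rows; red marks standard-named rows below the dashed limit of 29.6 CPM, and the 2 rows without any count are not drawn. Among standard-named rows the low ones end at 9.13 CPM and the others begin at 34.3 CPM, while paralogs lie on both sides of the limit and the other like-named rows reach at most 9.88 CPM.

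For some of these proteins the counts sat on rows with provisional LOC symbols, which the rule does not take and which the deposited table describes as like, or similar to, the named protein. The highest were 747 CPM for a P1-like row (LOC100360522), 304 CPM for an L13-like row (LOC100359922), 218 CPM for an L30-like row (LOC100362027), 131 CPM for an L36a-like row (LOC100912182) and 114 CPM for an L22-like row (LOC100360057). Their log2 changes were 0.09, 0.08, 0.20, 0.24 and 0.21, with adjusted p of 0.484, 0.421, 0.276, 0.0818 and 0.0796, so all 5 were positive and 0 passed. A P2-related row (LOC498555) held 44.7 CPM (0.18, adjusted p = 0.169) and an L37-like row (LOC100360781) 22.1 CPM. For L8, S6, S19, S13, S26, L38 and L35a the highest other row had 6.43 CPM or less, or none was found. Near-identical copies can share or lose counts, so the levels of all these rows are uncertain.

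Rpl30 and its L30-like partner varied in opposite ways. Rpl30 held 3.24, 18.7, 3.45, 3.40, 4.77 and 3.22 CPM with degarelix only and 3.72, 5.80, 21.5, 21.9 and 4.31 CPM with FSH. LOC100362027 held 211, 181, 205, 222, 210.1 and 197 CPM against 259.6, 270.1, 194, 191 and 257 CPM. The 3 libraries in which Rpl30 was high (degarelix only replicate 2 and FSH replicates 3 and 4) were the lowest of their group for the L30-like row. Rpl30's log2 change of 0.88 ± 0.64 (adjusted p = 0.435) was the largest of any tested ribosomal protein row.

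Lists of other genes of ribosome making and use had medians nearer 0. The 5′TOP list held translation factors and other genes, whose starts were not checked here. Of its 18 tested, 13 were positive (51.6% of all genes were), with a median log2 change of 0.06. Past the threshold were 0, where 1.21% of all genes were higher and 1.07% lower. At an unadjusted p under 0.05, 6 of the 18 were higher and 0 lower, against 11.8% and 10.8% of all genes. Those of smallest p were Eif3f, a subunit of initiation factor eIF3, at 146 to 163 CPM against 170.3 to 186 CPM (0.19, adjusted p = 0.0681), and, with 1187 to 1331 CPM against 1394 to 1498 CPM, Tpt1 (0.19, adjusted p = 0.121). Ribosome assembly factors (34 tested) were positive in 12 and negative in 22 (median -0.05), with 0 passing. At an unadjusted p under 0.05, 1 of the 34 was higher and 6 were lower. Tsr1, which acts late on the small subunit, held 44.7 to 52.1 CPM against 37.9 to 45.3 CPM (-0.25, adjusted p = 0.0584). The ribosomal RNA transcription list (10 tested) had 0 past the threshold and a median of 0.03. Its member Rrn3, which links growth signals to RNA polymerase I, held 24.5 to 30.5 CPM against 15.7 to 25.6 CPM (-0.40, adjusted p = 0.0775).

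In the list of growth control genes (14 tested, 5 positive, 9 negative, median -0.04), 1 passed as lower, where 1.07% of all genes did. Eif4ebp2, a repressor of cap-dependent translation that mTOR switches off, held 43.4, 34.3, 31.3, 36.1, 40.1 and 33.8 CPM with degarelix only and 23.2, 23.4, 27.9, 31.0 and 24.4 CPM with FSH. All FSH rats lay below all others, with a log2 change of -0.49 ± 0.10 and an adjusted p of 0.0367. Neither this call nor those of Mrpl49 and Tek below were followed with rats left out. Leaving out any of 9 of the 11 libraries cut the calls over all genes, in either direction, from 292 to between 30 and 152. Rptor, the partner that brings substrates to mTOR, held 45.2 to 57.4 CPM against 37.8 to 45.2 CPM (-0.25, adjusted p = 0.0857). The quality control list (8 tested, median -0.04) had 0 past the threshold, with Zak, a sensor of stalled ribosomes, at -0.76 (adjusted p = 0.112) and the ribosome ubiquitin ligase Rnf10 at -0.20 (adjusted p = 0.161).

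The mitochondrial ribosome, which is built from other genes, was positive in 23 and negative in 48 of its 71 tested rows, with a median log2 change of -0.05. It had 0 rows higher (1.21% of all genes) and 1 lower (1.07% of all genes) past the threshold. Mrpl49, a large subunit protein, held 27.1, 21.0, 19.5, 18.2, 23.1 and 19.3 CPM against 13.6, 12.6, 17.4, 16.0 and 15.1 CPM and fell without overlap by 0.52 on the log2 scale (adjusted p = 0.0434). Mrps18c held 14.8 to 19.4 CPM against 20.0 to 22.7 CPM (0.27, adjusted p = 0.0835). A difference between the cytosolic and mitochondrial lists was not tested.

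**Figure D5:**
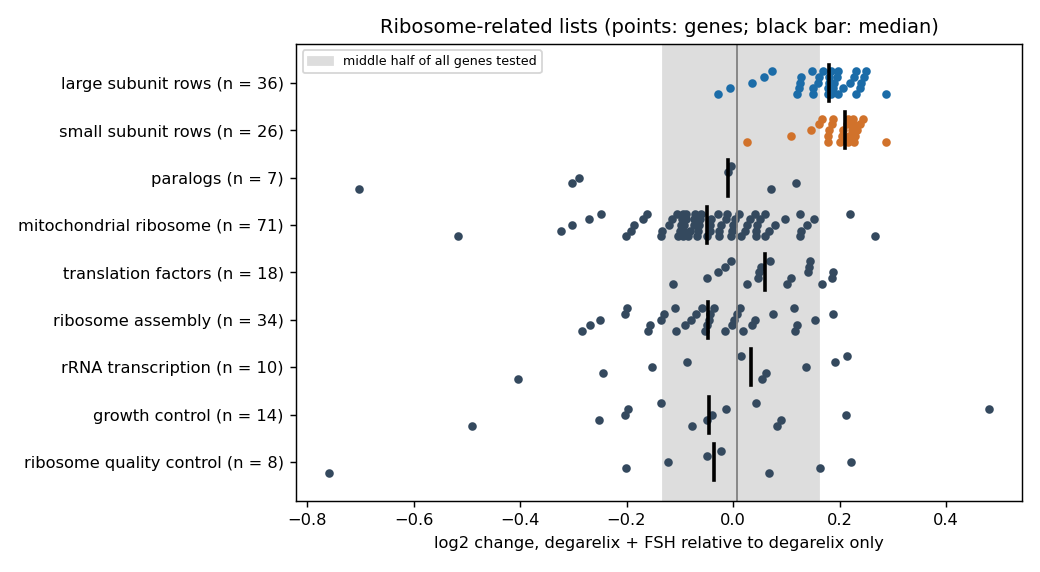
Points are log2 changes of single genes (FSH relative to degarelix only), black bars are list medians and the grey band holds the middle quartiles of all genes tested (-0.13 to 0.16). The medians of large and small cytosolic subunit rows (0.18 and 0.21) lie to the right of the band, and those of the other lists (-0.05 to 0.06) lie inside it.

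Markers of other cell types were read beside the ribosomal protein sums. Of 8 listed endothelial markers 7 had a row, and all 7 were positive (median log2 change 0.32), where 51.6% of all genes tested were. At an unadjusted p under 0.05, 5 were higher and 0 lower (11.8% and 10.8% of all genes). The 7 markers summed to 1346 to 1794 CPM with degarelix only and 1527 to 2494 CPM with FSH. Of them 1 passed as higher, where 1.21% of all genes did. It was Tek, at 90.3 to 119 CPM against 111 to 156 CPM (adjusted p = 0.0431). Smooth muscle and pericyte markers were positive in 6 of 6 (median 0.21, with 595 to 883 against 739 to 1044 CPM). Of 5 listed erythroid markers 3 had a row, all positive (median 1.16, with 90.7 to 622 against 323 to 1219 CPM). In either list 0 passed, and 1 marker was higher and 0 lower at an unadjusted p under 0.05. Adipocyte markers were positive in 3 of 6 and 0 passed. The part of these markers in the ribosomal protein result was not tested. The ranges overlapped for the remaining lists too. Summed levels were 303 to 529 against 402 to 509 CPM for progenitors, 156 to 349 against 149 to 315 CPM for macrophages, 205 to 308 against 151 to 359 CPM for plasma cells and 393 to 807 against 339 to 502 CPM for neutrophils. They were 6.63 to 15.6 against 5.04 to 13.1 CPM for T and NK cells, 0.485 to 1.80 against 0.471 to 1.68 CPM for B cells and 0.917 to 7.39 against 2.04 to 14 CPM for mesothelium. Of neighbouring tissues, kidney markers were at 0.0423 to 0.186 against 0.0485 to 0.297 CPM with Umod, Aqp2 and Slc34a1 at 0, adrenal markers at 50.9 to 69.1 against 51.5 to 62.3 CPM, and skeletal muscle markers at 11.2 to 15.6 against 10.9 to 16.6 CPM. Outside the kidney list no marker with a row was at 0 in every library.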

How the data were processed

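The deposited file holds whole-number counts per Ensembl gene, 1 column per rat, made by the authors from strand-marked, paired-end mRNA-seq libraries per the labels' protocols. STAR, edgeR, DESeq2 and build rn6 are named in the submitters' processing notes, without roles or versions. What counted the reads, on which annotation and with which strand setting, is not given in the sources used here, so counts of near-identical, overlapping or antisense genes are uncertain. Of 25275 rows, that of Pcmt1, with a letter in place of 1 value, was dropped, 17034 of the others held a count, and filterByExpr kept 12846.

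The fit used R 4.3.3 and edgeR 4.0.16 (TMM factors, robust quasi-likelihood F test, group only, 9 residual degrees of freedom, biological coefficient of variation 0.191). Chi-square per degree of freedom was at least 21.3 for each pair of libraries, far above sampling noise, and all 11 counted as separate. Alternatives were 4 other scalings, 2 filters, DESeq2 1.42.0, limma-voom (limma 3.58.1) with and without quality weights, a replicate block, a threshold of 0.10, only the plausible rows, and each library left out. Counts of rows without overlap under other scalings and with libraries left out were chosen after seeing the data. The genes and lists were chosen with earlier results of these data known.

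Genes were named by rule: all past the threshold, the 6 of smallest p per direction, the 3 highest and 3 lowest levels per subunit, low rows, paralogs, stalk, 5S particle, Rpl7, Rps4x and Rps3, and per related list those past the threshold and up to 2 of smallest p. A few genes within this rule are not reported here, though they stay in the counts and sums. Promoters were matched to RefSeq by symbol.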

Additional observations from a re-analysis of the deposited data

Results flagged for a closer look

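Each named ribosomal protein row with at least 100 counts over all libraries was screened for a rat far from the rest of its group, by Dixon's 95% limit (66 groups, 3 of them past it; chance alone passes about 1 in 20). Rpl30 in degarelix only replicate 2 stood at 18.7 CPM, above the others of its group at 3.22 to 4.77 CPM. Rpl7l1 in degarelix only replicate 3 stood at 29.5 CPM, below the others at 32.4 to 34.2 CPM. Rps28 in FSH replicate 4 stood at 127.7 CPM, below the others at 144.8 to 151.1 CPM.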

How the results depend on the processing

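The direction of the shared shift held in every setting run, while the count of rows past the threshold did not. Against 4 rows called higher and 0 lower, the counts higher, each with the share of all genes called higher in the same setting (1.21% in the reported one), were 2 with DESeq2 size factors (1.17%), 7 with upper-quartile factors (1.39%), 9 with library totals alone (1.42%), 4 with TMM on other genes (1.24%), 6 with 1 CPM in 5 libraries (1.47%), 0 with no filter (0.611%), 42 with the DESeq2 test (4.44%), 8 with limma-voom (1.40%), 25 with limma-voom and quality weights (2.57%), and 31 at an adjusted p of 0.10 (3.98%). The count lower was 1 with the DESeq2 test, with quality weights and at 0.10. In either direction 1135 of 12846 genes were called with the DESeq2 test and 635 with quality weights. Shares of all genes called lower were not counted outside the reported setting. With a library left out the counts ranged from 0 to 11 higher (0.169% to 2.10% of all genes) and 0 to 1 lower. With library totals alone the median log2 change was 0.26, the log2 ratio of summed CPM 0.24 and the rows without overlap 19 in place of 33. The share of all genes without overlap was counted in the reported setting only (2.54%), so the 19 has no share to be read against. With library totals alone the median of all genes was 0.08. The median of the 62 plausible rows exceeded that of all genes by 0.16 to 0.19 in every setting.

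Same-numbered rats did not deviate together in every pair (r of -0.11 to 0.18 over 5 pairs), and 0 of 5 FSH libraries correlated best with their own number. No pairing by number was seen, though 5 pairs cannot show that a weak one is absent. With the replicate number as a block, 0 rows were called higher, among 14 genes called of 12846, so none of the 4 calls was kept there.

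Log2 changes near 0 changed sign: Rpl17 (0.0438 with library totals alone, -0.109 to 0.0755 with a rat left out), Rps13 (0.0423 with totals, 0.00759 with the block, 0.00747 with quality weights, -0.109 to 0.0183), Rps6 (-0.00601 with DESeq2 size factors, -0.00338 with no filter, -0.0417 with the block, -0.00615 with the DESeq2 test, -0.0243 with quality weights, -0.134 to 0.121), Rps27l (0.00823 with upper-quartile factors, 0.067 with totals, 0.0127 with quality weights, -0.0314 to 0.0251) and Rps4y2 (0.0032 with upper-quartile factors, 0.0615 with totals, -0.223 to 0.0744). Only rows named by the rule were followed here. With library totals alone all 62 plausible rows were positive, so Rpl18 (-0.01 in the reported setting) changed sign there too. The cause was not tested. Rows of a few counts, as of Rps6 here (127 over all libraries), cannot show changes of the size seen in the high rows. The other rows listed held more counts: Rpl17 62160, Rps27l 9784, Rps4y2 3872 and Rps13 1835.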
